A study of Mus musculus with 258 samples.

Results

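Fev and 6 genes of the serotonin pathway were followed through the embryonic mouse pancreas, 7 genes of the 40824 counted in the series. They were chosen by name, with earlier results of these data known. They comprise the transcription factors Fev and Lmx1b, the tryptophan hydroxylases Tph1 and Tph2, the decarboxylase Ddc and the vesicular monoamine transporters Slc18a1 and Slc18a2. Values came from 6 bulk RNA-seq libraries and from single cells of 4 groups, out of 258 samples in all. The remaining 31, of chromatin immunoprecipitation, were left out and are not analysed here.

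Each bulk group had 2 libraries. Cells of the Ngn3-low and Ngn3-high gates were sorted at E13.5 (E for embryonic day) from dorsal pancreas of Ngn3-GFP embryos, by the strength of green fluorescence that reports Ngn3. This protein is the product of Neurog3 and commits pancreatic progenitors to the endocrine fate. Ins1-RFP positive cells were sorted at E17.5 with a red reporter of the insulin gene Ins1, and the submitters describe them as nascent beta cells. The 4 single-cell groups were all E13.5 dorsal pancreas, made of 49 wild-type (WT) Ngn3-low, 59 WT Ngn3-high, 69 Jmjd3-deleted Ngn3-low and 44 Jmjd3-deleted Ngn3-high cells. Deleted cells carried Pdx1-Cre, a recombinase transgene driven in pancreatic progenitors, with floxed Jmjd3 (Jmjd3 fl/fl). Jmjd3 is the product of Kdm6b and removes methyl groups from histone H3 lysine 27. The labels name no Cre for WT cells, so what the Cre does and what losing Jmjd3 does cannot be told apart. They name no animal or litter either, so bulk p-values measure the spread between these libraries, which may be technical, and each single-cell group was 1 sample with no test.

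Serotonin is made in a pair of steps. A tryptophan hydroxylase, Tph1 in peripheral tissues or Tph2 in neurons, turns tryptophan into 5-hydroxytryptophan with tetrahydrobiopterin as cofactor, and Ddc removes the carboxyl group. Slc18a1 (VMAT1) or Slc18a2 (VMAT2) then loads the amine into vesicles. In the brain stem Fev (Pet-1) and Lmx1b act together to switch on this gene set in serotonin neurons. In the pancreas Fev marks endocrine precursors after Neurog3, and beta cells can make serotonin, most clearly during pregnancy.

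The bases just before the annotated starts of Fev, Lmx1b, Tph2 and Slc18a2 are shown because these 4 genes had their highest levels in different sorted groups, Fev, Lmx1b and Slc18a2 in Ngn3-high cells and Tph2 in Ins1-RFP positive cells. RefSeq (GRCm38.p6) start sites were found for 6 of the 7 genes, and Slc18a1 had none in the table used. The stretches lie at chr1:74885472-74885658 (minus strand), chr2:33641209-33641348 (minus), chr10:115185023-115185272 (minus) and chr19:59260628-59260877 (plus). Each is written 5′ to 3′ on the gene's own strand and ends just before the gene's annotated span, apart from the Fev stretch, which runs on to the end of a match. The Lmx1b stretch lies inside the annotated span of C130021I20Rik (chr2:33641193-33645663). Capitals mark matches, on either strand, to the E-box letters CAGATG and CAGCTG, the ETS core CCGGAA and the homeodomain core TAATTA.

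Fev: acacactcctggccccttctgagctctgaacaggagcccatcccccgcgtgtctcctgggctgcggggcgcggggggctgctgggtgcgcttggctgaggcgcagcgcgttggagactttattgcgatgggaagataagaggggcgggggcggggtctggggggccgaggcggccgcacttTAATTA
Lmx1b: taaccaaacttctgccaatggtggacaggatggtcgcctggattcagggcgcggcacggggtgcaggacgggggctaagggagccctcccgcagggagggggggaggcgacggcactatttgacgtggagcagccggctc
Tph2: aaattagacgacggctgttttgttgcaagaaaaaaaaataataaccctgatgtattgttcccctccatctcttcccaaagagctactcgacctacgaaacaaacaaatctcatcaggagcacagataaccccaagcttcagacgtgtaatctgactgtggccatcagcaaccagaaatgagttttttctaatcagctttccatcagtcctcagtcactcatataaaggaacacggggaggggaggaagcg
Slc18a2: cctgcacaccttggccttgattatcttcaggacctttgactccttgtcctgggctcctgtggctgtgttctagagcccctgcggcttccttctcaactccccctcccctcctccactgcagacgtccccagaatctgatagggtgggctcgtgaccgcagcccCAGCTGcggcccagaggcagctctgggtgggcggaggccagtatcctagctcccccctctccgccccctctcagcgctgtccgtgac

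In the 250 bases before the RefSeq start, Fev held 1 match, TAATTA at 69 to 64 bases before it. Slc18a2 held 1 match, CAGCTG at 87 to 82 bases before its start. Neither Lmx1b nor Tph2 held any of the 4 motifs in that window. Tph1 has 2 start sites in the table, and the downstream one held TAATTA at 234 to 229 bases before it, while the 2 start sites of Ddc held no match. Of 32851 RefSeq windows of this length, 14.4% held CAGATG, 13% CAGCTG, 12% CCGGAA and 4.84% TAATTA on either strand. GC content was 68% for Fev, 65.2% for Lmx1b and 64% for Slc18a2 against 43.6% for Tph2, with a median of 52.4% over all windows.

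The genes lie on 7 chromosomes (RefSeq, GRCm38). Fev is at chr1:74881501-74885473, Lmx1b at chr2:33560965-33641208, Tph1 at chr7:46644641-46672537 and Tph2 at chr10:115078641-115185022. Ddc is at chr11:11814101-11898144, Slc18a1 at chr8:69037708-69089238 and Slc18a2 at chr19:59260878-59296012. Lmx1b overlaps Gm39790 and C130021I20Rik, Ddc overlaps Gm51937 and 1700042O10Rik, and Slc18a1 overlaps Atp6v1b2. Whether strand was used in counting is not given in the sources used here. Reads of an overlapping partner cannot be told apart in those 3 genes.

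Bulk libraries held 11957415 to 17760214 reads in genes and cells 380478 to 1949839, with a median of 708409. Levels are counts per 1000000 reads in genes of a library, cell or group (CPM), and a library without a read has a floor of 3 counts, 0.169 to 0.251 CPM. The libraries of each bulk group differed by more than sampling noise and were counted separately. Neurog3, which the sort used, was lowest in Ins1-RFP positive cells (28.2 and 27 CPM), intermediate in the Ngn3-low gate (193 and 161) and highest in the Ngn3-high gate (1191 and 1090). Ins1 reached 32616 and 22566 CPM in the libraries sorted on its reporter, which also held Gcg at 724 and 1526 CPM. Markers of other cells moved with the groups. The 10 macrophage genes summed to 2684 and 2241 CPM in bulk Ngn3-low, with all 10 read, to 17.9 and 7.78 CPM with 2 unread in Ngn3-high, and to 73.8 and 129 CPM in Ins1-RFP positive cells. The 8 endothelial genes summed to 403 and 440, 9.13 and 5.85, and 46.7 and 55.3 CPM in the same order. The 10 tip and acinar genes, such as Cpa1, summed to 533 and 467, 75.2 and 80.5, and 1230 and 19938 CPM, the last in Ins1-RFP positive library 2. Their part in the results was not tested, and in bulk a smaller number of cells of a type cannot be told from less RNA per cell.

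In bulk, 5 of the 7 genes rose from Ngn3-low to Ngn3-high cells (edgeR quasi-likelihood test, adjusted p under 0.05), where 57.9% of the 15684 genes tested passed in either direction, 27.7% rose and 30.2% fell. Those 5 were Fev, Lmx1b, Ddc, Slc18a1 and Slc18a2, and neither Tph1 nor Tph2 passed. From Ngn3-high to Ins1-RFP positive cells Fev, Lmx1b and Slc18a2 fell, while Ddc, Slc18a1, Tph1 and Tph2 rose, which is 7 of 7 past the threshold against a background of 50.9% (26.1% rose and 24.9% fell). Between the first and the last group, Ngn3-low and Ins1-RFP positive, 6 rose and Slc18a2 fell, where 66% of genes passed (30.4% rose and 35.5% fell). Tph1 and Tph2 passed the filter on low counts only through the Ins1-RFP positive libraries, so their calls there are no support for a rise of the group as a whole. The comparisons share libraries and are given side by side. Because the genes and lists were chosen with earlier results of these data known, counts set beside shares over all genes, here and below, are a description. An excess over such a share may come from the choice.

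**Figure D1:**
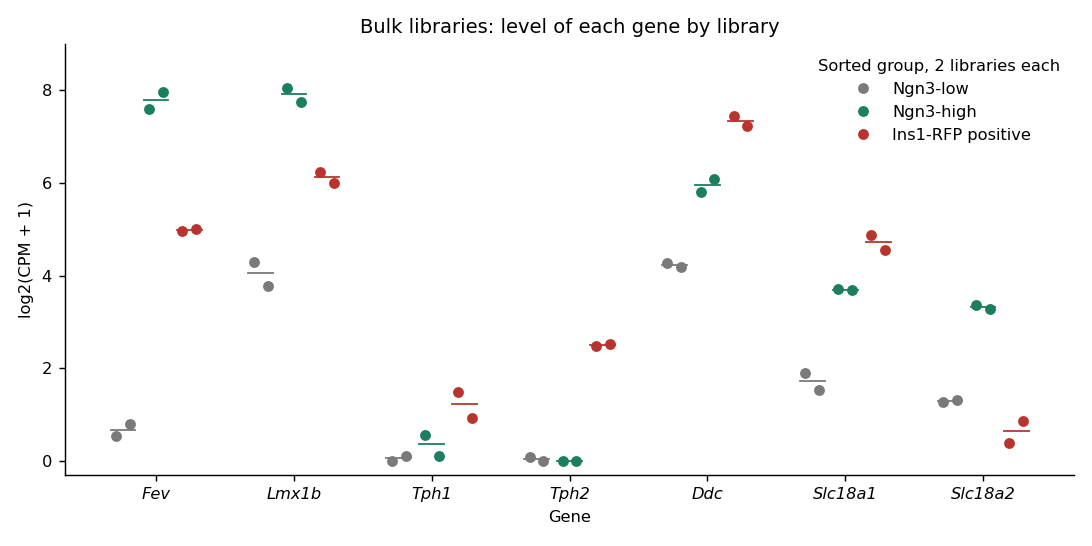
Level of each of the 7 genes on the log2(CPM + 1) scale in the 6 bulk libraries. Points are libraries, short lines are the log2 of the mean CPM + 1 of the 2 libraries of a group, and Fev and Lmx1b peak in Ngn3-high cells while Ddc and Slc18a1 are highest in Ins1-RFP positive cells.

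Fev encodes an ETS-family transcription factor. It was close to absent in Ngn3-low libraries, at 0.450 and 0.736 CPM (8 and 9 reads), against 193 and 249 CPM in Ngn3-high and 30.4 and 31.2 CPM in Ins1-RFP positive libraries. No library of 1 group overlapped another, and the order was Ngn3-high, Ins1-RFP positive, Ngn3-low. The log2 fold change was 8.66 (SE 0.230, edgeR adjusted p = 2.83e-07) into Ngn3-high cells and -2.76 (SE 0.148, edgeR adjusted p = 6.29e-06) from there to Ins1-RFP positive cells, which left Fev 5.90 above Ngn3-low on the log2 scale (SE 0.237). Per kilobase of gene length, Fev was the most abundant of the 7 genes in Ngn3-high cells, at 149 CPM per kb. In Ins1-RFP positive cells it came after Ddc, at 20.7 CPM per kb.

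Lmx1b, a LIM homeodomain factor, followed the same order with a smaller range. Its 2 libraries stood at 18.5 and 12.6 CPM for Ngn3-low, 266 and 214 for Ngn3-high, and 74.9 and 62.9 for Ins1-RFP positive cells, again without overlap. The rise was 4.01 on the log2 scale (SE 0.218, edgeR adjusted p = 1.77e-06) and the later change -1.72 (SE 0.194, edgeR adjusted p = 0.000201). In Ins1-RFP positive cells it was therefore still 2.30 above Ngn3-low (SE 0.209, edgeR adjusted p = 2.39e-05). Per length, Lmx1b stood at 55.4 and 44.8 CPM per kb in Ngn3-high libraries, below the 130 and 167 CPM per kb of Fev.

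The hydroxylases, which carry out the rate-limiting step, were scarce, and per length they were the lowest of the 7 in Ngn3-low and Ngn3-high cells. Tph1 had 0 and 1 read in Ngn3-low, 8 and 1 in Ngn3-high and 29 and 12 in Ins1-RFP positive libraries, at most 1.82 CPM. The Ngn3-low and Ngn3-high libraries with 1 read each lay side by side at 0.0818 and 0.0836 CPM, the change did not pass (edgeR adjusted p = 0.0949), and the ratio of 9 reads to 1 was 9.36 with a 95% counting interval of 1.3 to 410. Tph1 rose by 2.23 on the log2 scale from Ngn3-high to Ins1-RFP positive cells (SE 0.753, edgeR adjusted p = 0.0372). That call was lost without library 1 (4.00, adjusted p = 0.0531) or 2 (1.58, 0.200) of Ngn3-high, without library 1 of Ins1-RFP positive (1.60, 0.218), and with DESeq2 (2.36, adjusted p = 0.120). Against Ngn3-low, 41 reads to 1 gave a ratio of 41.9 with an interval of 7.11 to 1695 (edgeR adjusted p = 0.00284). Counting intervals cover counting error only.

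Tph2, the neuronal form, was read in Ins1-RFP positive libraries at 4.58 and 4.77 CPM (73 and 64 reads). It had no read in either Ngn3-high library and 1 read in a single Ngn3-low library. With the floor of 3 counts in each Ngn3-high library, Tph2 was at least 21.8-fold higher in Ins1-RFP positive cells (edgeR adjusted p = 0.000137). Against Ngn3-low the ratio was 140 with an interval of 24.7 to 5572 (edgeR adjusted p = 6.49e-05). Ngn3-low and Ngn3-high were both at or under the floor and could not be compared. Per kilobase, Tph2 stood at 1.78 and Tph1 at 0.665 CPM per kb in Ins1-RFP positive cells, and the libraries of the 2 genes did not overlap on that scale (1.75 and 1.82 against 0.892 and 0.438).

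Ddc, the decarboxylase, also serves dopamine synthesis. Its level increased at each step, from 18.4 and 17.3 CPM in Ngn3-low to 54.7 and 67.2 CPM in Ngn3-high and 174 and 149 CPM in Ins1-RFP positive libraries, with no overlap. The steps were 1.85 (SE 0.145, edgeR adjusted p = 1.22e-05) and 1.49 (SE 0.136, edgeR adjusted p = 6.54e-05) on the log2 scale. In Ins1-RFP positive cells Ddc was the most abundant of the 7 genes per length, at 80.2 CPM per kb.

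The vesicular transporters parted at the later stage. Slc18a1 stood at 2.70 and 1.88 CPM in Ngn3-low, 12 and 11.9 in Ngn3-high and 28.5 and 22.5 in Ins1-RFP positive libraries. Slc18a2 stood at 1.41 and 1.47, 9.25 and 8.70, and 0.314 and 0.820 CPM in the same order. Slc18a1 was highest in Ins1-RFP positive cells and Slc18a2 in Ngn3-high cells, and the groups did not overlap for either gene. Into Ngn3-high cells Slc18a1 rose by 2.44 (SE 0.247, edgeR adjusted p = 5.61e-05) and Slc18a2 by 2.72 (SE 0.357, edgeR adjusted p = 0.000260). From there Slc18a1 rose by a further 1.18 (SE 0.213, edgeR adjusted p = 0.00230) and Slc18a2 fell by 3.92 (SE 0.404, edgeR adjusted p = 0.000123). Per kilobase the 2 transporters had 3.84 and 2.36 in Ngn3-high cells and 8.18 and 0.149 in Ins1-RFP positive cells.

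Against Ngn3-low, Slc18a2 differed in Ins1-RFP positive cells by -1.20 on the log2 scale (SE 0.446, edgeR adjusted p = 0.0413), on 5 and 11 reads. This call did not hold with DESeq2 (adjusted p = 0.0801), with only the 2 compared groups fitted (adjusted p = 0.113), or with the replicate numbers as a block (-1.22, adjusted p = 0.0529). It was also lost without Ngn3-low library 1 or 2 (adjusted p = 0.104 and 0.0941), without Ngn3-high library 1 or 2 (0.0787 and 0.0740), and without Ins1-RFP positive library 1 (-0.65, adjusted p = 0.256).

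The authors' deposited table of pooled bulk RPKM, which scales reads by gene length and depth, gave the same order of groups for each of the 7 genes. Fev was listed there at 0.35, 145.46 and 22.25 in Ngn3-low, Ngn3-high and Ins1-RFP positive cells, and Tph2 at 0.01, 0 and 1.92. In the authors' deposited table Slc18a2 was listed at 0.35, 2.37 and 0.15 RPKM. That table pools the same bulk groups, so its order of groups is no separate measurement. For Tph2 the order of Ngn3-low and Ngn3-high rests on 1 read against 0.

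Genes of the cofactor tetrahydrobiopterin, which both hydroxylases and tyrosine hydroxylase need, were tested next. Of 7, 3 rose and 2 fell into Ngn3-high cells, with a median log2 fold change of -0.30 against -0.01 over all genes tested. Gch1, the entry enzyme of cofactor synthesis, went from 7.32 and 9.41 CPM to 111 and 165 CPM, a rise of 4.14 (SE 0.215, edgeR adjusted p = 1.42e-06), and was at 161 and 172 CPM in Ins1-RFP positive cells, where the further difference of 0.36 did not pass (edgeR adjusted p = 0.129). Qdpr, which recycles the cofactor, rose from 48 and 52.3 to 175 and 186 CPM and fell to 79.6 and 89.9 CPM in Ins1-RFP positive cells. Spr, the last enzyme of cofactor synthesis, fell by 1.27 (SE 0.165). Pcbd2, a second recycling enzyme gene, fell by 0.70 and then rose by 1.12 to 9.92 and 11.3 CPM. From Ngn3-high to Ins1-RFP positive cells, 3 of the 7 rose and 1 fell, with a median of 0.36 against 0.01 over all genes. Over all genes tested, 27.7% rose and 30.2% fell at the first step, and 26.1% rose and 24.9% fell at the second.

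Uptake and breakdown genes moved in both directions. Of 7, 3 rose and 4 fell into Ngn3-high cells, with a median of -1.13, where 57.9% of all genes passed in either direction. From there to Ins1-RFP positive cells 2 rose and 2 fell, with a median of 0.23, where 50.9% of all genes passed. Slc29a4, a plasma membrane monoamine transporter, went from 11.2 and 10.6 to 117 and 105 CPM, a rise of 3.43 (SE 0.150, edgeR adjusted p = 6.56e-07), and stood at 98.4 and 81.0 CPM in Ins1-RFP positive libraries. The monoamine oxidases moved apart. Maob stood at 6.02 and 6.30, then 24.7 and 36.6, then 309 and 250 CPM, with rises of 2.39 and 3.28, while Maoa, which prefers serotonin, fell from 26.7 and 30.9 to 10.5 and 14.4 and then to 4.40 and 8.43 CPM. Aldh2, a dehydrogenase of the aldehyde products, fell from 152 and 155 to 26.6 and 26.9 CPM and rose to 49.3 and 70.6 CPM.

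Slc6a4, the serotonin reuptake transporter, lay under the 5 CPM used for naming in bulk and was chosen after its values were seen. Ngn3-low libraries had 3.10 and 2.94 CPM, Ngn3-high libraries 0.119 and 0.167 CPM (2 reads each), a change of -4.27 (SE 0.945, edgeR adjusted p = 0.00464). In single cells it reached 10 CPM in 4 of 49 WT and 8 of 69 deleted Ngn3-low cells and had no read in the 59 WT and 44 deleted Ngn3-high cells, which allow shares of cells with a read of up to 5.08% and 6.82%, taking 3 cells as the limit of a count of 0.

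**Figure D2:**
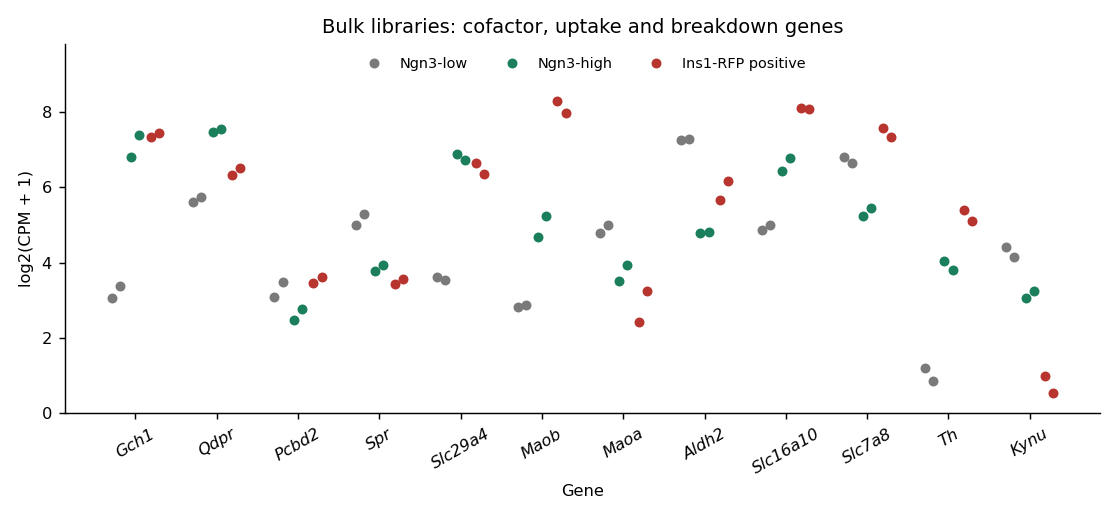
Level on the log2(CPM + 1) scale of 12 genes, Th and 11 of the cofactor, uptake, breakdown and tryptophan lists, in the 6 bulk libraries, with 2 points for each sorted group. Gch1 and Slc29a4 sit low in Ngn3-low cells and high in the other groups, Maob climbs at each step, and Maoa and Kynu decline at each step.

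Tryptophan carriers and the enzymes of other tryptophan routes changed in both directions. Of 12 genes 7 could be tested, of which 1 rose and 5 fell into Ngn3-high cells (median -1.14), and 4 rose and 1 fell from there (median 0.73). The shares of all genes that rose and fell were 27.7% and 30.2%, then 26.1% and 24.9%. Slc16a10, an aromatic amino acid transporter, rose from 28 and 31.2 to 84.6 and 109 and then to 274 and 266 CPM. Slc7a8, a light chain of a neutral amino acid exchanger, stood at 111 and 99.1, 37 and 42.7, and 187 and 160 CPM. In single cells its direction between the gates was the opposite, from 2.60 to 39.98 CPM in WT (log2 ratio 3.51) and from 8.52 to 36.4 CPM in deleted cells (1.97). Macrophage genes summed to 2684 and 2241 CPM in bulk Ngn3-low and to 9.15 CPM in WT Ngn3-low single cells, and their part in this was not tested. Kynu, on the competing kynurenine route, fell at each step, from 20.2 and 16.6 to 7.35 and 8.45 and to 1.00 and 0.447 CPM. The routes that lead from serotonin to melatonin were near the floor, with Aanat and Asmt at 0.491 CPM or less in every library.

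Serotonin receptors were scarce, and those named here lie under 5 CPM and were chosen after their values were seen. Of 14 receptor genes 3 could be tested, and none reached 2 CPM in any library. Htr1d stood at 1.54 and 1.42 CPM in Ngn3-high libraries against 0.732 and 0.327 CPM in Ngn3-low (1.49, SE 0.553, edgeR adjusted p = 0.0463), and Htr1b at 1.3 and 1.06 CPM in Ngn3-low against 0.119 and 0.0836 CPM in Ngn3-high (-3.33, SE 0.626, edgeR adjusted p = 0.00199). Among enzymes and carriers of other monoamines, Th, the tyrosine hydroxylase of dopamine synthesis, stood at 1.3 and 0.818, 15.4 and 13, and 41 and 33.1 CPM, rising by 3.78 (SE 0.270) and by 1.47 (SE 0.206). The single cells did not show that rise in WT, where Th had 2 reads in Ngn3-low and none in Ngn3-high cells, while deleted Ngn3-high cells had 7.93 CPM, with 5 of 44 cells at 10 CPM or more. Per length Th had 20.5 and 16.6 CPM per kb in Ins1-RFP positive libraries, above the 1.75 and 1.82 of Tph2 and the 0.892 and 0.438 of Tph1.

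Of 15 regulators known from serotonin neurons and enterochromaffin cells, 10 could be tested, 7 rose and 3 fell into Ngn3-high cells (median 1.98) by edgeR, and 6 fell from there (median -1.16). Of all genes tested, 27.7% rose and 30.2% fell at the first step, and 24.9% fell at the second. Insm1, a zinc finger factor, stood at 77.6 and 98.7, 573 and 921, and 276 and 317 CPM. Rfx6, a winged helix factor of gut and islet endocrine cells, stood at 51.8 and 55.9, 418 and 405, and 189 and 178 CPM. Lmx1a, the close relative of Lmx1b, stood at 0.282 and 0, 4.57 and 6.02, and 0.126 and 0 CPM. Foxa1 fell against Ngn3-low, where its 2 libraries differed widely at 1.07 and 12.8 CPM, and in single cells it stood at 0.866 and 0 CPM in WT and 0.288 and 2.39 CPM in deleted Ngn3-low and Ngn3-high cells.

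Other cell types that hold serotonin were checked by their markers. The mast cell proteases Tpsb2, Tpsab1, Cma1 and Mcpt4 had at most 1 read in Ngn3-high libraries, where 6 of the 8 mast cell genes had none. In Ins1-RFP positive libraries the mast cell gene Cpa3 had 11 and 8 reads, Cma1 10 and 6, Tpsb2 3 and 4 and Tpsab1 2 and 3. In Ngn3-low libraries the same genes had 51 and 24, 5 and 4, 3 and 7, and 0 and 3 reads. Kit made up nearly all of that list's sum, at 239 and 219 CPM in Ngn3-high libraries. The 8 platelet and megakaryocyte genes summed to 177 and 122 CPM in Ngn3-low, led by Pf4 at 150 and 100 CPM, and to 2.73 and 2.09 CPM in Ngn3-high libraries, with 4 of 8 at 0. The 8 intestinal genes summed to 25.2 and 70.6, 120 and 102, and 47 and 45 CPM in the order Ngn3-low, Ngn3-high and Ins1-RFP positive, with Vil1 at 113 and 95.8 CPM in Ngn3-high cells. The 10 genes of neural crest, glia and neurons summed to 281 and 282, 324 and 294, and 159 and 157 CPM, led by Erbb3 and Ret. The 7 genes of liver and proximal tubule type metabolism gave 1 rise and 5 falls into Ngn3-high cells, where 27.7% of all genes rose and 30.2% fell. Whether such cells carried any of the changes above was not tested.

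Single cells showed how these levels were spread. The targeted gene came first as a check of the genotype. Kdm6b was at 131 CPM in WT and 55.5 CPM in deleted Ngn3-low cells and at 265 and 107 CPM in the Ngn3-high groups, with cell values of 78.4 to 513 CPM in WT and 4.56 to 335 CPM in deleted Ngn3-high cells. Which part of the gene is floxed is not given in the labels, so the remaining reads cannot be assigned to deleted or undeleted alleles. Group values below are summed counts in CPM with exact 95% Poisson intervals, and a cell counts as having a gene at 10 CPM or more, with exact (Clopper-Pearson) 95% intervals of the share. Both cover counting error only.

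**Figure D3:**
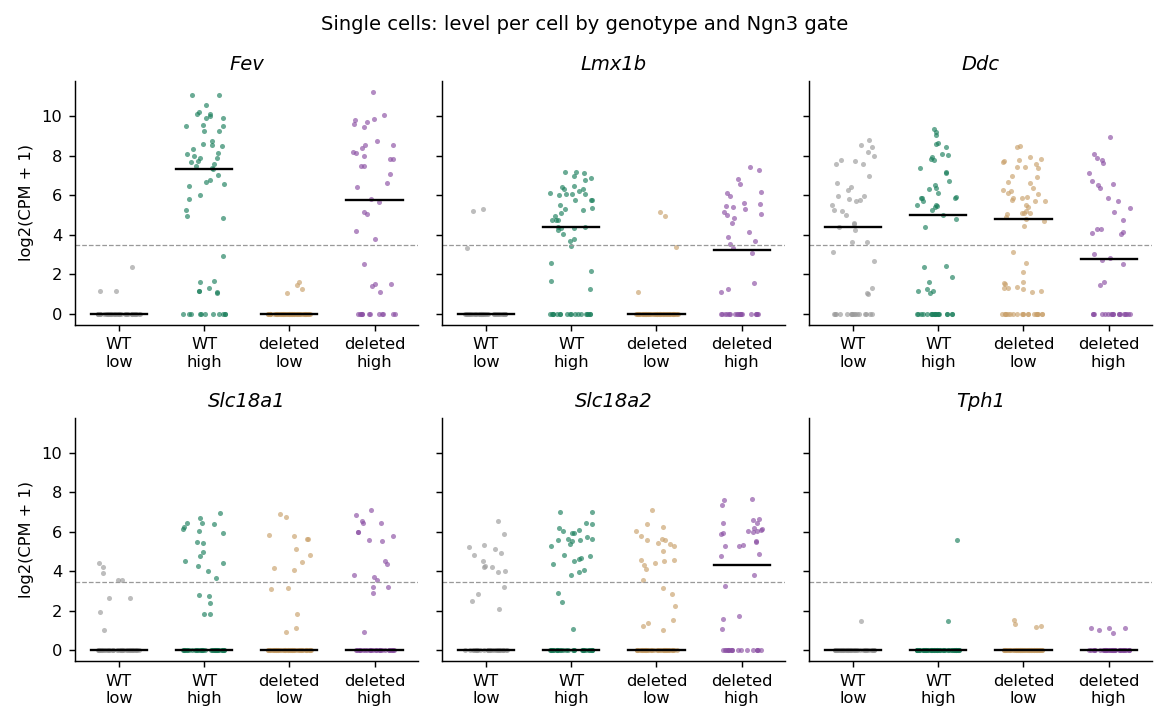
Level per cell on the log2(CPM + 1) scale of 6 of the genes in 49 WT Ngn3-low, 59 WT Ngn3-high, 69 deleted Ngn3-low and 44 deleted Ngn3-high cells. Each point is a cell, the solid line the median and the dashed line 10 CPM. Fev and Lmx1b are near 0 in Ngn3-low cells and split into low and high cells in both Ngn3-high groups, and Ddc spans all 4 groups.

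Between gates, 4 of the 7 genes were at least 2-fold higher in WT Ngn3-high than in WT Ngn3-low cells, counted as a log2 ratio of 1 or more with 1 CPM added to each side, where 35.1% of genes passed 2-fold, 15% higher and 20.1% lower. The same count, 4 of 7, was reached in deleted cells, against 36% of genes past 2-fold, 16.3% higher and 19.7% lower. Fev, Lmx1b, Slc18a1 and Slc18a2 made up the 4 in each genotype. The shares over all genes cover only those at 1 CPM or more in a compared group, 14827 in WT and 14865 in deleted cells. Tph1 and Tph2 lay under that level in every single-cell group, and with 1 CPM added they could not pass 2-fold. Slc18a2 was close to the limit in WT cells, with a log2 ratio of 1.05 that went to 0.73 when scaled to spike-in RNA.

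Fev reached 10 CPM in a single gate. The sum gave 0.124 CPM (4 reads, interval 0.0337 to 0.317) in WT Ngn3-low and 388 CPM (382 to 393) in WT Ngn3-high cells, and 0.0959 CPM (0.0311 to 0.224) and 299 CPM (293 to 305) in the deleted groups. No Ngn3-low cell of either genotype reached 10 CPM, and the highest had 4.17 CPM. In WT Ngn3-high cells 40 of 59 (67.8%, 54.4 to 79.4%) had Fev, with a lowest, median and highest level of 0, 157 and 2153 CPM. In deleted Ngn3-high cells it was 27 of 44 (61.4%, 45.5 to 75.6%), with 0, 52.6 and 2389 CPM. Among cells with Fev the median was 276 CPM in WT and 250 CPM in deleted cells.

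Lmx1b was found in 2 of 49 WT Ngn3-low and 36 of 59 WT Ngn3-high cells (61%, 47.4 to 73.5%), and in 2 of 69 and 21 of 44 deleted cells (47.7%, 32.5 to 63.3%). Its sums were 1.79 and 36.2 CPM in WT and 0.921 and 28.5 CPM in deleted cells. The shares of cells with Fev and with Lmx1b had overlapping intervals in WT Ngn3-high cells, while per length the group sums were 260 CPM per kb for Fev and 7.55 CPM per kb for Lmx1b. The bulk Ngn3-low level of Lmx1b, 18.5 and 12.6 CPM, lay above that of the single Ngn3-low cells. The same held in the Ngn3-high gate, at 266 and 214 CPM in bulk against 36.2 CPM in WT and 28.5 CPM in deleted single cells.

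Tryptophan hydroxylase reads were almost absent from single cells. Tph1 had 1 read in the Ngn3-low and 35 in the Ngn3-high cells of WT, and 4 and 5 in those of the deleted genotype. The 35 reads came from 2 cells, of which 1 stood at 47 CPM, the single cell of any group that reached 10 CPM. That cell had Fev at 2149 CPM, Ddc at 51.1 CPM, Slc18a1 at 87.1 CPM and Slc18a2 at 27.6 CPM, with Lmx1b at 1.38 CPM. Tph2 had no read in 3 groups and 1 read in deleted Ngn3-low cells, and 0 of 59 WT Ngn3-high cells allows a share of cells with a read of up to 5.08%, taking 3 cells as the limit of a count of 0. In Ngn3-high cells Tph1 was at 0.804 CPM (0.560 to 1.12) in WT and 0.155 CPM (0.0503 to 0.362) in deleted cells. These counting intervals do not overlap, and 1 WT cell carries the difference.

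Ddc did not follow the gate. It was found in 28 of 49 WT Ngn3-low (57.1%, 42.2 to 71.2%), 32 of 59 WT Ngn3-high (54.2%, 40.8 to 67.3%), 37 of 69 deleted Ngn3-low (53.6%, 41.2 to 65.7%) and 20 of 44 deleted Ngn3-high cells (45.5%, 30.4 to 61.2%). Group sums were 67.2, 94.1, 60.8 and 51.5 CPM in that order. The lowest, median and highest cell had 0, 20.2 and 449 CPM in WT Ngn3-low and 0, 30.7 and 661 CPM in WT Ngn3-high cells. The bulk libraries gave 18.4 and 17.3 CPM in Ngn3-low against the 67.2 CPM of the single cells, and 54.7 and 67.2 CPM in Ngn3-high against 94.1 CPM. Bulk Ngn3-low libraries held macrophage genes at 2684 and 2241 CPM, which summed to 9.15 CPM in WT Ngn3-low single cells, and the part of those cells in the difference was not tested.

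The cells with Ddc differed by gate in what else they held, in genes picked after the values were seen. In WT Ngn3-low cells Cpa1, a marker of tip and acinar cells, was at 10 CPM or more in 16 of 28 cells with Ddc and 5 of 21 without. Deleted Ngn3-low cells gave 21 of 37 and 4 of 32. In Ngn3-high cells the partner was Chgb, a granule protein of endocrine cells, found in 28 of 32 WT cells with Ddc and 14 of 27 without, and in 18 of 20 and 15 of 24 deleted cells. Cpa1 was found in 1 of 32 WT Ngn3-high cells with Ddc. Pearson correlations of log2(CPM + 1) between Ddc and Cpa1 were 0.50 over the 49 WT and 0.50 over the 69 deleted Ngn3-low cells, given as a description, since cells of a group share their source and library preparation.

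The vesicular transporters were found in partly different cells. Slc18a1 was found in 5 of 49 WT Ngn3-low, 18 of 59 WT Ngn3-high, 11 of 69 deleted Ngn3-low and 15 of 44 deleted Ngn3-high cells, at group sums of 1.95, 17.53, 7.67 and 20.8 CPM. Slc18a2 was found in 13, 26, 19 and 23 cells of the same groups, at 9.74, 21.3, 12.6 and 35.6 CPM. In WT Ngn3-high cells 7 had both, 11 had Slc18a1 alone, 19 had Slc18a2 alone and 22 had neither. Deleted Ngn3-high cells gave 7, 8, 16 and 13. Per kilobase the WT Ngn3-high sums of Slc18a1 and Slc18a2 were 5.63 and 5.59 CPM per kb, closer to each other than in bulk Ngn3-high cells.

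**Figure D4:**
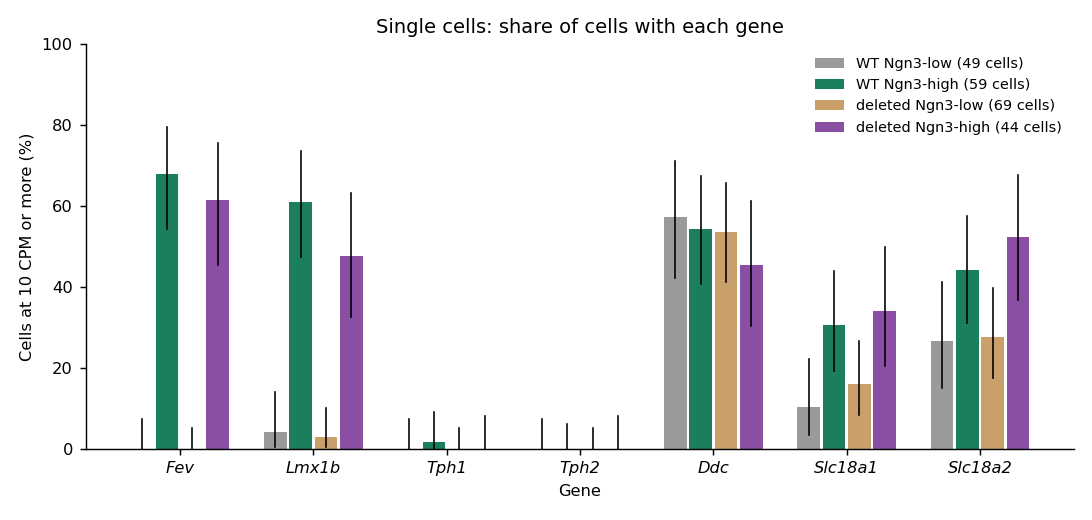
Share of cells at 10 CPM or more for each gene in the 4 single-cell groups. Bars are the percentage of cells and lines the exact 95% Clopper-Pearson interval, and Fev and Lmx1b have tall bars only in the 2 Ngn3-high groups while Ddc has bars of 45.5 to 57.1% in all 4.

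Few cells held all of the more abundant genes. Of 5 genes, Fev, Lmx1b, Ddc, Slc18a1 and Slc18a2, WT Ngn3-high cells most often held 2 (18 cells) or 3 (17 cells), and 1 of 59 held all 5. In deleted Ngn3-high cells 16 held 2, and 3 of 44 held all 5. WT Ngn3-low cells held none of the 5 in 15 of 49 cases and never more than 3. A read of either hydroxylase together with Ddc at 10 CPM or more was found in 0 WT Ngn3-low, 2 WT Ngn3-high, 1 deleted Ngn3-low and 2 deleted Ngn3-high cells.

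Within the Ngn3-high gate, Chgb and Gch1 were found more often in cells with Fev than in cells without, by counts with no test. Of the 40 WT cells with Fev, 39 had Chgb, 40 had Neurod1, a target of Neurog3, and 31 had Gch1, while of the 19 without Fev 3 had Chgb, 11 had Neurod1 and 1 had Gch1. Deleted cells gave 26, 27 and 18 of 27 with Fev and 7, 11 and 3 of 17 without. Qdpr, the only other cofactor gene counted against Fev, was found in 40 of 40 and 16 of 19 WT cells and in 27 of 27 and 17 of 17 deleted cells. Both cofactor genes counted here rose into Ngn3-high cells in bulk, and the rest of that list was not counted in this way. Pax4, a homeodomain factor needed for beta cells, was found in 38 of 40 and 19 of 19 WT cells, so it did not part the cells. Neurog3 itself was at 10 CPM or more in 30 of 40 WT cells with Fev and in 19 of 19 without. Among hormone genes, Pyy (peptide YY) was found in 12 of 40 WT cells with Fev and 1 of 19 without, and in 16 of 27 and 3 of 17 deleted cells. Ins2 was found in 4 of 40 and 0 of 19 WT cells and in 7 of 27 and 2 of 17 deleted cells. Ins1 was found in 1 of 40 WT cells with Fev and 1 of 19 without, and in 2 of 27 and 1 of 17 deleted cells. Gcg was found in 4 of 40 and 1 of 19 WT cells and in 0 of 27 and 2 of 17 deleted cells.

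Lmx1b was spread otherwise. It was found in 23 of 40 WT Ngn3-high cells with Fev and 13 of 19 without, and in 11 of 27 and 10 of 17 deleted cells. Ddc was found in 26 of 40 WT cells with Fev and 6 of 19 without, and in 16 of 27 and 4 of 17 deleted cells. Slc18a1 was found in 14 of 40 and 4 of 19 WT cells and in 14 of 27 and 1 of 17 deleted cells, and Slc18a2 in 20 of 40 and 6 of 19 and in 16 of 27 and 7 of 17. Across the 59 WT Ngn3-high cells the Pearson correlation of log2(CPM + 1) with Fev was 0.90 for Chgb, 0.69 for Gch1, 0.61 for Neurod1, 0.41 for Ddc, -0.12 for Lmx1b and -0.31 for Neurog3. Across the 44 deleted Ngn3-high cells it was 0.89, 0.58, 0.55, 0.56, -0.12 and -0.54. The correlation of Fev with the reads of a cell was 0.22 and 0.25.

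**Figure D5:**
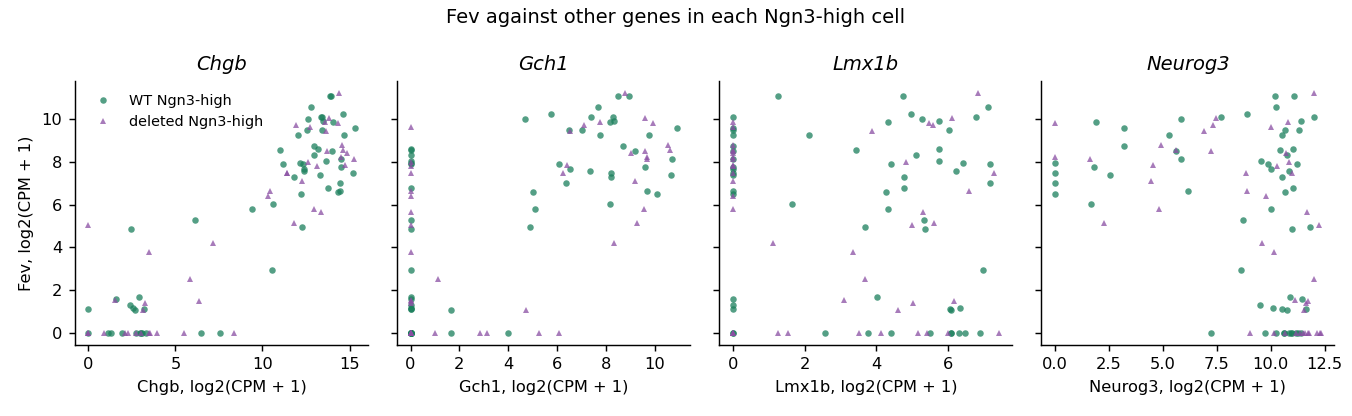
Fev against Chgb, Gch1, Lmx1b and Neurog3 in each of the 59 WT (circles) and 44 deleted (triangles) Ngn3-high cells, all on the log2(CPM + 1) scale. Cells rich in Chgb are also rich in Fev, with a correlation of 0.90 in WT cells, whereas Lmx1b, at -0.12, is spread over cells with and without Fev.

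Among 8778 genes at 10 CPM or more in at least 25% of WT Ngn3-high cells, those most like Fev over the 59 WT Ngn3-high cells were Chgb (0.90), Runx1t1 (0.87), Pax6 (0.85), Rimbp2 (0.84), Gnao1 (0.82) and Scg3 (0.81), by Pearson correlation of log2(CPM + 1). Over all cells of the 4 groups they were Chgb (0.93), Gnao1 (0.91), Pax6 (0.91), Scg3 (0.90), Rimbp2 (0.89) and St18 (0.89), where the gates alone set most of the range. In bulk these genes differed at the later stage. Mean bulk levels in Ngn3-high and Ins1-RFP positive cells were 8933 and 2388 CPM for Chgb and 206 and 51.7 CPM for Runx1t1, but 468 and 531 CPM for Pax6 and 324 and 1359 CPM for Scg3. Among the same 8778 genes none came close to Ddc, with Akr1c12 (0.38), Irf2bpl (0.29) and Alcam (0.29) at the head over all cells. That filter was set on WT Ngn3-high cells, so Cpa1, at 0.50 with Ddc in both Ngn3-low groups, was not ranked. For Tph1 the highest value was 0.26 (A830010M20Rik), on 1 cell above 10 CPM. Genes most like Lmx1b, a search added after the values were seen, were Tmsb4x (0.63), Dbn1 (0.62) and Igfbpl1 (0.60) over the 59 WT Ngn3-high cells.

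Jmjd3 deletion was compared within each gate. The shares over all genes again cover those at 1 CPM or more in a compared group, which leaves out Tph1 and Tph2. In Ngn3-high cells 0 of the 7 genes passed 2-fold between genotypes, where 10.6% of genes did (5.43% higher and 5.16% lower in deleted cells), and in Ngn3-low cells 1 did, where 8.15% of genes passed, 3.56% higher and 4.6% lower in deleted cells. The log2 ratio of deleted to WT Ngn3-high cells was -0.37 for Fev, -0.34 for Lmx1b, -0.86 for Ddc, 0.23 for Slc18a1 and 0.72 for Slc18a2. Shares of cells with each gene had overlapping 95% intervals between genotypes for each of the 7 genes in both gates. With 1 sample per group none of these differences was tested.

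The titles of the cells carry numbers 1 to 6 whose meaning the labels do not give, and numbers 1, 5 and 6 occur in both Ngn3-high groups. By number, Fev was at 501, 122 and 342 CPM in WT and 437, 112 and 56.8 CPM in deleted Ngn3-high cells, lower in deleted cells in each. The gap was largest for number 6, with 16 WT and 6 deleted cells. Without the cells numbered 1, the log2 ratio of Fev moved to -1.49 and Fev alone passed 2-fold, which made 1 of 7 genes. Ddc was at 84.5, 110 and 102 CPM in WT and 43.4, 55 and 77.3 CPM in deleted cells, again lower in each. The 77.3 CPM of number 6 rests on 1 of 6 deleted cells, at 485 CPM, the only 1 of them at 10 CPM or more. Slc18a2 was at 15.8, 33.8 and 23.6 CPM in WT and 30.3, 57.6 and 21.9 CPM in deleted cells, higher in 2 of the 3 numbers. Lmx1b gave 38.5, 29.1 and 36.3 against 34.1, 14.6 and 27.9 CPM, and Slc18a1 gave 22, 17.7 and 8.78 against 23.8, 24.4 and 3.78 CPM.

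In Ngn3-low cells the gene past 2-fold was Slc18a1, at 1.95 CPM in WT (63 reads, interval 1.50 to 2.49) and 7.67 CPM in deleted cells (400 reads, 6.94 to 8.46), a log2 ratio of 1.56. It was found in 5 of 49 (10.2%, 3.40 to 22.2%) and 11 of 69 cells (15.9%, 8.24 to 26.7%). In the numbers that both groups hold, 1, 2 and 5, Slc18a1 was at 2.46, 2.32 and 0 CPM in WT and 11, 6.99 and 4.26 CPM in deleted cells. WT cells of numbers 3 and 4 had 4.21 and 0 CPM. With 5 CPM added to each side in place of 1, the log2 ratio was 0.87 and no gene passed. The highest WT cell had 20.8 CPM and the highest deleted cell 119 CPM.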

How the data were processed

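RNA was measured in 6 bulk libraries and in 221 single cells (Smart-seq2 with ERCC spike-in RNA, per the labels' protocols). The deposited values used were raw counts per gene from the authors, and pooled RPKM per bulk group from the authors' deposited table, used as a description. The genome build was mm10, and the tools listed, in no order, are HTSeq 0.6.0, TopHat2 2.1.0, DESeq 1.20.0 and Bowtie2, per the submitters' processing notes. CPM were computed without the 92 ERCC rows, and 39864 of 40824 gene IDs had a symbol in the gene name table.

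Bulk counts were fitted with edgeR 4.0.16 (quasi-likelihood test, TMM factors, filterByExpr, all 6 libraries) in R 4.3.3, with Benjamini-Hochberg adjustment over 15684 genes at 0.05; DESeq2 1.42.0 was an alternative. Before use the fit was tested, for Ngn3-high against Ngn3-low, on counts simulated with the mean levels, library sizes and spread of all 6 libraries. Single-cell counts were summed per group, with 1 sample per group and no test. Cells needed 100000 reads in genes, which all 221 had, and doublets were not called. Python 3.11.15, pandas 2.3.3 and scipy 1.17.1 were used.

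From each list up to 4 genes were named, those called with the largest change at 5 CPM or more in the higher group, beside context genes and the genes most like Fev, Ddc and Tph1. The genes and lists were chosen with earlier results of these data known.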

Additional observations from a re-analysis of the deposited data

Results flagged for a closer look

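Ddc differed in direction between genotypes. Its log2 ratio of Ngn3-high to Ngn3-low cells, with 1 CPM added, was 0.48 in WT cells and -0.24 in Jmjd3-deleted cells, from sums of 94.1 and 67.2 CPM and of 51.5 and 60.8 CPM. The difference was not tested, since each group was 1 sample. Without the cells of title number 2 the ratios were 0.92 and 0.27, both in the same direction. Scaled to spike-in RNA they were 0.14 and -0.41.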

How the results depend on the processing

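Of the bulk results for single genes, 237 kept their direction and side of the threshold under the alternatives, 12 lost the call and 1 gained it, and none reversed. Leaving out each library in turn gave 5 to 5 genes called into Ngn3-high cells, 6 to 7 from Ngn3-high to Ins1-RFP positive cells and 6 to 7 from Ngn3-low to Ins1-RFP positive cells. The calls lost were those of Tph1 and Slc18a2 given with their values in the report, and Tph1 passed from Ngn3-low to Ngn3-high cells without a filter on low counts (2.94, edgeR adjusted p = 0.0392).

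Replicate numbers were shared by the bulk groups, but the correlations of same-numbered libraries' deviations over 15029 genes were 0.0961, 0.106 and 0.0902, with 2 pairs per comparison. The labels give the numbers no meaning, and 2 pairs cannot show whether they pair the libraries, so no block was used in the values reported. With the replicate block 5, 7 and 6 genes were called, the call lost being that of Slc18a2 between Ngn3-low and Ins1-RFP positive cells (adjusted p = 0.0529 in place of 0.0413, edgeR).

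In single cells, without title number 1 the count past 2-fold between genotypes in Ngn3-high cells was 1 in place of 0. With a pseudocount of 5 CPM the count in Ngn3-low cells was 0 in place of 1, since a larger pseudocount shrinks the ratio of low levels. Between gates in WT cells the count was 3 to 5 of 7. Of the log2 ratios 206 stayed within and 60 left the counting interval of the value reported, and of the shares of cells 61 and 23. The depth of Tph1 and Tph2, at 1 to 35 and 0 to 1 reads per group, limits what single cells can show of them.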

Other observations

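The span of Cryba2, a crystallin gene (chr1:74889934-74898842, GRCm38), has its lower coordinate 4461 bases past the higher coordinate of the Fev span. That is the side of the start of Fev, a minus-strand gene. Which end of Cryba2 faces Fev was not looked up. Cryba2 was looked at after its values were seen. In bulk it stood at a mean of 0.869 CPM in Ngn3-low, 64.2 CPM in Ngn3-high and 101 CPM in Ins1-RFP positive cells, with rises of 6.32 (SE 0.203, edgeR adjusted p = 3.11e-07) and 0.74 (edgeR adjusted p = 0.00201) on the log2 scale. Fev, its neighbour, fell over the later step. In single cells Cryba2 was at 0.247 and 150 CPM in WT and 0.882 and 119 CPM in deleted Ngn3-low and Ngn3-high cells.

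Slc6a4 and Ddc met in Ngn3-low cells, a pairing also chosen after the values were seen. All 4 WT Ngn3-low cells with Slc6a4 at 10 CPM or more had Ddc, and of the 8 deleted ones 6 had it. The highest cells had 214 CPM of Slc6a4 in WT and 381 CPM in deleted cells. Neurog3 was found in 12 of 28 WT Ngn3-low cells with Ddc and in 15 of 21 without, and in 14 of 37 and 20 of 32 deleted cells.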
